A study of Rattus norvegicus with 6 samples.

Results

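The tricarboxylic acid cycle enzymes described here are 9 genes, namely Cs, Idh2, Idh3a, Idh3b, Ogdh, Suclg1, Sucla2, Fh1 and Mdh2, chosen by name as enzymes of the cycle. A gene was measured where a row of the array was annotated with its symbol alone, current or older, and the row with the highest mean was used. This gave 8 of the 9 genes, among 14324 genes in all. Fh1 (now Fh), the fumarase gene, was not analysed here. RNA came from the aorta of male Fisher 344 rats aged 1 to 2 months, either as rings cultured for 1 day inside a collagen gel in EBM medium without serum (day 1 cultures) or as rings taken fresh (day 0 rings). Each group held 3 arrays, called biological replicates in the labels, and each array was hybridised with RNA from 4 to 6 pooled cultures or rings. The aortic ring culture is a model of angiogenesis, and the comparison asks what differs after its first day. Cultures were frozen and extracted as whole gels.

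The cycle oxidises acetyl groups in the mitochondrial matrix and passes electrons to the respiratory chain as NADH and reduced flavin. Its intermediates also leave for the synthesis of lipids, amino acids and heme. Medial smooth muscle makes up most of the cells of the aortic wall, and the wall also holds endothelium, adventitial fibroblasts, macrophages and perivascular fat. Values below are log2 expression values, 1 per gene and array. A change is the mean of the day 1 cultures minus that of the day 0 rings, with its standard error from limma after ±. A gene was called where its Benjamini-Hochberg adjusted p over all genes was under 0.05. Probes differ in brightness, so values of different genes are not compared as levels. In tissue RNA, fewer cells of a type and less RNA per cell cannot be told apart.

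After 1 day of culture, the enzymes of the cycle did not move as 1 group. Idh2 and Ogdh fell most, to 47.8% and 54.6% of their day 0 values on the linear scale. Idh3a and Sucla2 fell by less, and Cs, Idh3b and Suclg1 did not pass the test. Mdh2 passed upward with a small change, a call that 9 of 17 alternatives did not keep. In all, 5 of the 8 measured members were called, a share not far above the 48.3% of all genes. Of these, 4 fell, as 20.7% of all genes did, and 1 rose, as 27.6% of all genes did. Day 1 and day 0 arrays were fully separate in 6 members, where 56.9% of all genes were. They were lower on day 1 in 5 (25.5% of all genes) and higher in 1 (31.4%). The median log2 change was -0.20 over the 8 members and -0.01 over all genes. By size of change, Idh2 ranked 1067 and Ogdh 1503 among the 14324 genes.

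**Figure D1:**
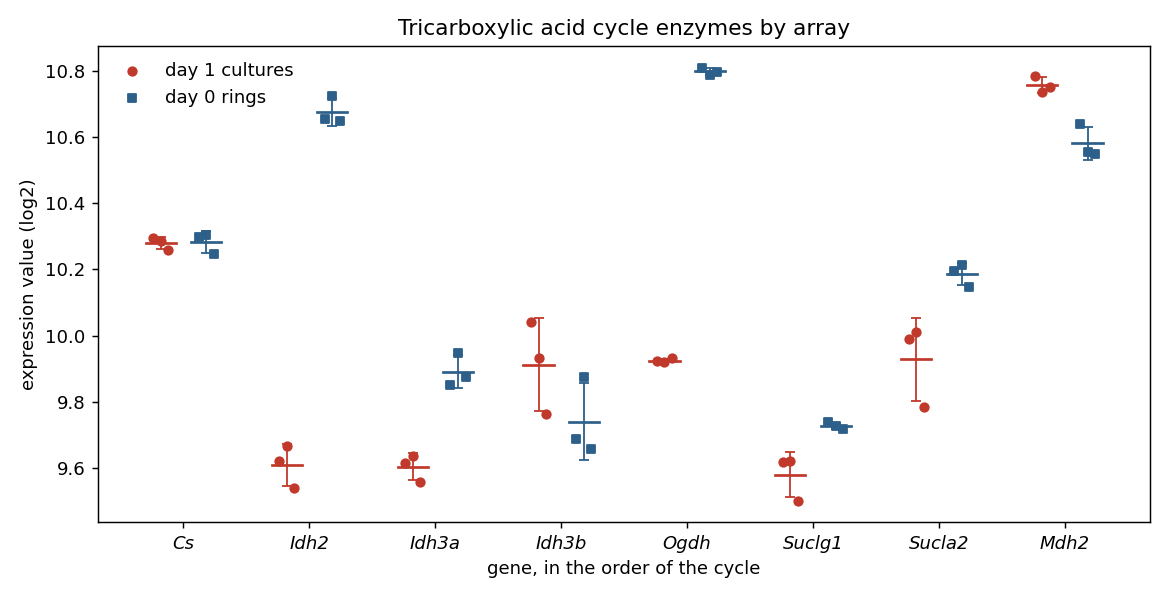
Log2 expression values of the 8 measured cycle enzymes on the 6 arrays. Points are arrays, red circles for the day 1 cultures and blue squares for the day 0 rings, with the group mean as a bar and the SD as an error bar. Idh2 and Ogdh are lower on every day 1 array, and the Cs values of both groups lie on top of each other.

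Cs encodes citrate synthase, which joins acetyl-CoA and oxaloacetate at the entry of the cycle. It had 10.29, 10.28 and 10.26 in the day 1 cultures and 10.30, 10.31 and 10.25 in the day 0 rings. The groups overlapped, and the change was -0.004 ± 0.056 (adjusted p = 0.964), with a 95% interval from -0.13 to 0.13. A second, dimmer row of Cs also overlapped between groups, with a change of 0.02 ± 0.08.

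Idh2 encodes the mitochondrial isocitrate dehydrogenase that makes NADPH, a reductant used by the glutathione and thioredoxin systems. It had 9.62, 9.67 and 9.54 in the day 1 cultures and 10.65, 10.72 and 10.65 in the day 0 rings. Every day 1 array lay below every day 0 array, by at least 0.98. Idh2 fell by 1.07 ± 0.06, or 2.09-fold (adjusted p = 4.72e-06).

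Idh3a and Idh3b encode subunits of the NAD-dependent isocitrate dehydrogenase, the form that makes NADH in the cycle. The alpha subunit, from Idh3a, carries the catalytic site. Idh3a had 9.61, 9.64 and 9.56 in the day 1 cultures and 9.85, 9.95 and 9.88 in the day 0 rings, without overlap. It fell by 0.29 ± 0.06 (adjusted p = 0.00476). Idh3b had 10.04, 9.93 and 9.76 in the day 1 cultures and 9.69, 9.88 and 9.66 in the day 0 rings. These groups overlapped, and the change of 0.17 ± 0.09 did not pass (adjusted p = 0.174, 95% interval -0.05 to 0.39). Idh3b had the largest spread of the 8 members, with an SD of 0.14 on day 1 and 0.12 on day 0. The remaining subunit gene, Idh3g, was at -0.01 ± 0.07 (adjusted p = 0.954).

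Ogdh encodes the first enzyme of the oxoglutarate dehydrogenase complex, which releases carbon dioxide and forms succinyl-CoA. It had 9.92, 9.92 and 9.93 in the day 1 cultures and 10.81, 10.79 and 10.80 in the day 0 rings. Replicates lay within 0.01 of each other on day 1, the closest of the 8 members, and within 0.02 on day 0. Ogdh fell by 0.87 ± 0.05, or 1.83-fold (adjusted p = 6.15e-06). Dld, the dihydrolipoamide dehydrogenase that this complex shares with the pyruvate complex, rose by 0.43 ± 0.10 (adjusted p = 0.00854), and the related gene Ogdhl was at 0.18 ± 0.11 (adjusted p = 0.214). Dlst, the middle enzyme of the complex, had a row only together with another symbol and was not analysed here.

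Suclg1 and Sucla2 encode the alpha subunit and the ADP-using beta subunit of succinyl-CoA ligase, which forms a nucleoside triphosphate as it releases succinate. Suclg1 had 9.62, 9.62 and 9.50 in the day 1 cultures and 9.74, 9.73 and 9.72 in the day 0 rings. Its arrays did not overlap, but the change of -0.15 ± 0.06 was not called (adjusted p = 0.0815). A call was made without the dimmest 25% of genes (adjusted p = 0.0494), without genes under the median mean (0.0275) and with an intensity trend (0.0197). With quantile normalization it was at -0.26 and passed (adjusted p = 0.00680). Sucla2 had 9.99, 10.01 and 9.79 in the day 1 cultures and 10.20, 10.21 and 10.15 in the day 0 rings. It fell by 0.26 ± 0.08 (adjusted p = 0.0245). Leaving out day 1 replicate 3, its lowest array, ended this call (-0.19, adjusted p = 0.0617). So did leaving out day 0 replicate 1 (-0.25, adjusted p = 0.0610) or replicate 2 (-0.24, adjusted p = 0.0685), and centring each array on its median (-0.21, adjusted p = 0.0631). Suclg2, the GDP-using beta subunit, had a change of 0.18 ± 0.06 (adjusted p = 0.0322). That call was lost with any of the 6 arrays left out (adjusted p 0.0588 to 0.0986) and with quantile normalization (0.05, adjusted p = 0.471).

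Mdh2 encodes mitochondrial malate dehydrogenase, which returns malate to oxaloacetate and works in the malate-aspartate shuttle. It had 10.78, 10.73 and 10.75 in the day 1 cultures and 10.64, 10.56 and 10.55 in the day 0 rings, without overlap. The change was 0.18 ± 0.06 (adjusted p = 0.0385). This was the call least stable to the processing, lost under 9 of 17 alternatives. Adjusted p was 0.0979 without day 1 replicate 1, 0.0758 without replicate 2 and 0.0794 without replicate 3. It was 0.0978 without day 0 replicate 2 and 0.109 without day 0 replicate 3. With quantile normalization the change was 0.09 (adjusted p = 0.232), and with the replicate number as a block the adjusted p was 0.0589. The cytosolic form, Mdh1, was at -0.16 ± 0.07 (adjusted p = 0.0888).

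**Figure D2:**
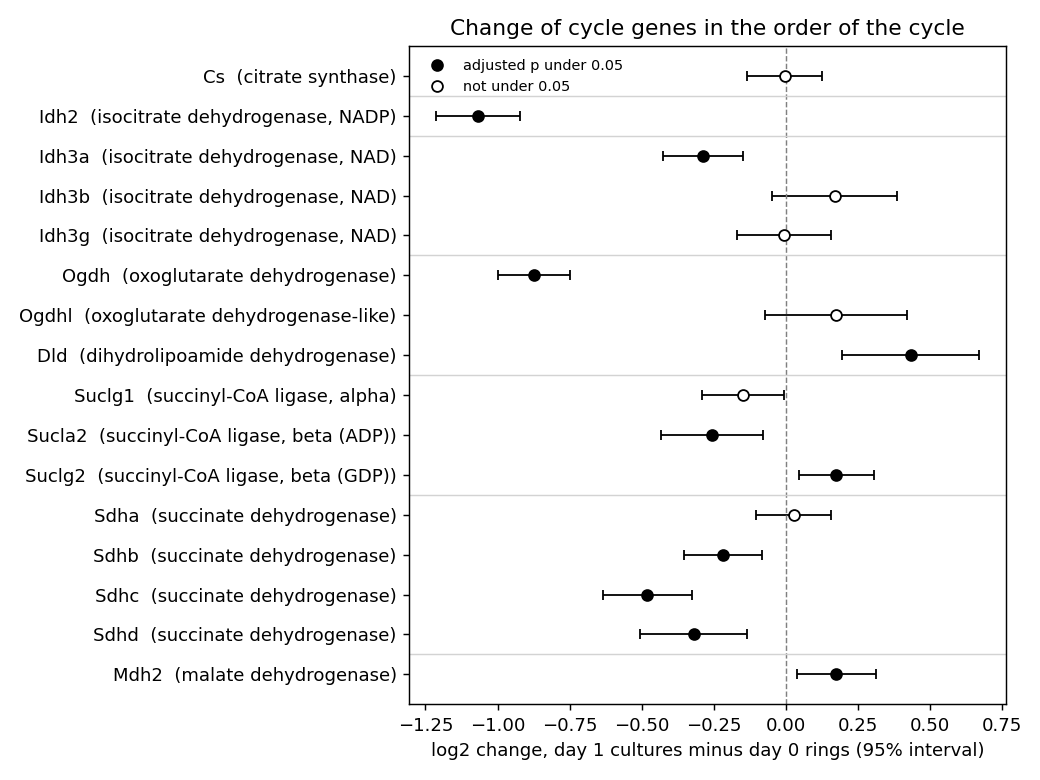
Log2 change of 16 cycle genes with 95% intervals from limma, day 1 cultures minus day 0 rings, from citrate synthase at the top to malate dehydrogenase at the bottom. Filled points passed an adjusted p of 0.05. Idh2 (-1.07) and Ogdh (-0.87) stand apart to the left, and Dld (0.43) lies farthest to the right.

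The promoters of the members that changed most downward and of the 1 member called upward are shown as context. That upward call, of Mdh2, was lost under 9 of 17 alternatives. Each promoter is the 250 bases before the gene's annotated start, from RefSeq on build GRCr8, 5′ to 3′ on the gene's strand. Idh2 is at chr1:143467249-143467498 on the minus strand, Ogdh at chr14:85363781-85364030 on the plus strand and Mdh2 at chr12:26543842-26544091 on the minus strand. Capitals mark matches, on either strand, to CCGGAAG, an ETS site of the kind bound by GABP, and to CGCGAGA.
Idh2: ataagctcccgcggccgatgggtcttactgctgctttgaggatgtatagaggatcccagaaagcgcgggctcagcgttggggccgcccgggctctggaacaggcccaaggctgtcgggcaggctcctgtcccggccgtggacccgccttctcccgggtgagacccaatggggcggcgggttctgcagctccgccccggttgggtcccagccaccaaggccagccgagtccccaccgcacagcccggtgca
Ogdh: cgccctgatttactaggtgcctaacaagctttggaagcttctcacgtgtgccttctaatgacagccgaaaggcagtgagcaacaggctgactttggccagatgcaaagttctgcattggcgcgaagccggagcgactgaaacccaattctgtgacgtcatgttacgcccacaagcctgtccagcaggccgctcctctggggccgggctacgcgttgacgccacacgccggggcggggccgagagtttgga
Mdh2: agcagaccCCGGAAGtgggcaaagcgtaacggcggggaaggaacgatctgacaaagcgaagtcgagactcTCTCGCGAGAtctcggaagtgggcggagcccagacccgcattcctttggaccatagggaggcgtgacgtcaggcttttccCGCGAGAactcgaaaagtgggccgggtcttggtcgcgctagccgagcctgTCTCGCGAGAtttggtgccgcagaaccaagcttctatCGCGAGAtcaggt

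Of the 9 members, 8 had a promoter in the table, Idh3a being the one without. Sites of nuclear respiratory factors and estrogen-related receptors were looked for because these factors are known to control many mitochondrial genes. The genes of such factors were not called. Nrf1 was at -0.09 ± 0.06 (adjusted p = 0.237), Gabpa at 0.15 ± 0.06 (0.0744) and Esrra at 0.045 ± 0.067 (0.617). The ETS letters were in 2 of the 8 promoters, those of Mdh2 and Idh3b, and in 7.27% of all 33469 promoters of this length. The letters TGCGCA, part of the NRF1 site, and AAGGTCA, part of the site of estrogen-related receptors, were in 0 of the 8, against 6.14% and 3.99% of all. The letters CGCGAGA were noticed while reading the Mdh2 promoter, which holds 6 matches on both strands, 4 of them in 2 overlapping pairs that read TCTCGCGAGA. They were in no other member's promoter, in 2.05% of all promoters, and at least 3 times in 0.102% of them. Because the letters were picked from the Mdh2 promoter itself, these shares are no test of it. All the sites given here are matches of letters in 1 window and show no binding.

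Within an array, the difference between a pair of genes of the same complex or step is free of any shift of the whole array. Idh3a minus Idh3b was -0.43, -0.29 and -0.20 in the day 1 cultures and 0.16, 0.07 and 0.22 in the day 0 rings, a change of -0.46. Idh2 minus Idh3a was 0.01, 0.03 and -0.02 in the day 1 cultures and 0.80, 0.78 and 0.77 in the day 0 rings, a change of -0.78. Suclg1 minus Sucla2 was -0.37, -0.39 and -0.28 in the day 1 cultures and -0.46, -0.49 and -0.43 in the day 0 rings, a change of 0.11. The groups did not overlap in any of these 3 pairs. An exact two-sided permutation test gave p = 0.1 for each, the smallest that 3 against 3 arrays can give, and 0.1 after adjustment over the 3 pairs. The design therefore cannot bring these differences past 0.05 by that test.

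**Figure D3:**
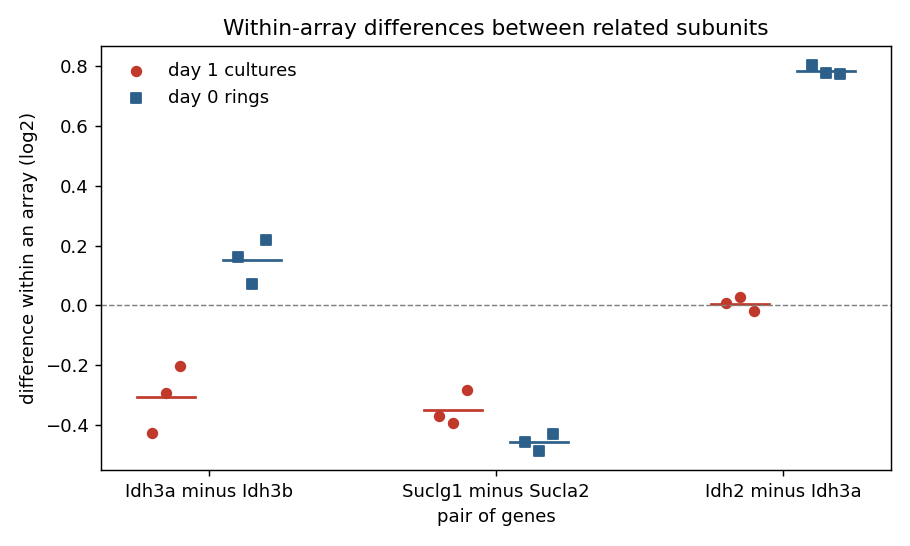
Difference between 2 genes within each array, in log2 units, for 3 pairs of related genes. Red circles are day 1 cultures and blue squares day 0 rings, with the mean of 3 arrays as a bar. The largest gap is that of Idh2 minus Idh3a, near 0 on day 1 and between 0.77 and 0.80 on day 0.

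Averaged over the members, the arrays of a group differed little, but single members spread more. Idh3b ranged over 0.28 on day 1 and 0.22 on day 0, and Sucla2 over 0.23 on day 1. Day 1 replicate 3 was on average 0.06 below its group's mean and day 0 replicate 3 was 0.03 below it. Day 1 replicate 3 was the highest of its group in 1 of 8 members and day 0 replicate 3 in 0 of 8. By root mean square difference over the 6 arrays, after each gene was centred on its own mean, the profiles most like that of Idh2 were those of Maged2 (0.0167), Acadm (0.0308) and Vldlr (0.0432), in log2 units. Their changes were -1.06, -1.06 and -1.04. With 2 groups this distance mainly picks genes of near-equal change, and a link between these genes and Idh2 was not tested.

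Succinate dehydrogenase, the enzyme that the cycle shares with the respiratory chain, had its membrane and iron-sulfur subunit genes lower. Sdhc, a membrane anchor, fell by 0.48 ± 0.07, Sdhd, the other anchor, by 0.32 ± 0.08, and the iron-sulfur subunit gene Sdhb by 0.22 ± 0.06. Sdhb was no longer called without replicate 1 of day 1 (adjusted p = 0.0511) or of day 0 (0.0518). Sdha, the flavin-bearing catalytic subunit, was at 0.03 ± 0.06 (adjusted p = 0.721). Of 8 measured cycle genes outside the members, 3 fell and 2 passed upward, Dld and the unstable Suclg2, with a median of 0.01. Of all genes, 20.7% fell and 27.6% rose. Among 7 genes for lipoylation and succinate dehydrogenase assembly, 3 rose and 1 fell (median 0.11). Sdhaf2, which helps attach the flavin of Sdha, fell by 0.54 ± 0.06. Sdhaf3 rose by 0.51 ± 0.12 and Lias, the lipoyl synthase gene, by 0.44 ± 0.09.

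At the entry of pyruvate, 5 of 13 genes passed upward and 3 downward (median 0.07), where 27.6% and 20.7% of all genes did. The count upward was 3 with quantile normalization and without day 1 replicate 1 or 2 or day 0 replicate 2 or 3. The kinases that phosphorylate and switch off pyruvate dehydrogenase made up 4 of the 5. Pdk1 had 8.85, 8.68 and 8.67 in the day 1 cultures and 8.28, 8.17 and 8.08 in the day 0 rings, and rose by 0.56 ± 0.08 (adjusted p = 6.48e-04). Pdk4 rose by 0.45 ± 0.10 (adjusted p = 0.00842). Pdk3 (0.27 ± 0.08) and Pdk2 (0.19 ± 0.06) passed with all arrays but not with quantile normalization (adjusted p = 0.0768 for Pdk3 and 0.348 for Pdk2). Without those 4 arrays in turn, Pdk3 was at an adjusted p of 0.0556 to 0.0899 and Pdk2 at 0.0627 to 0.102, and Pdk2 was also lost without day 1 replicate 3 (0.0727). The phosphatases that reverse this step went both ways, with Pdp1 at 0.39 ± 0.06 and Pdp2 at -0.50 ± 0.07. Pdhb, the beta subunit of the dehydrogenase, had 9.10, 9.06 and 8.98 in the day 1 cultures and 9.57, 9.61 and 9.48 in the day 0 rings, and fell by 0.51 ± 0.07 (adjusted p = 3.83e-04). Its partner Pdha1 was at -0.07 ± 0.07 (adjusted p = 0.476).

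**Figure D4:**
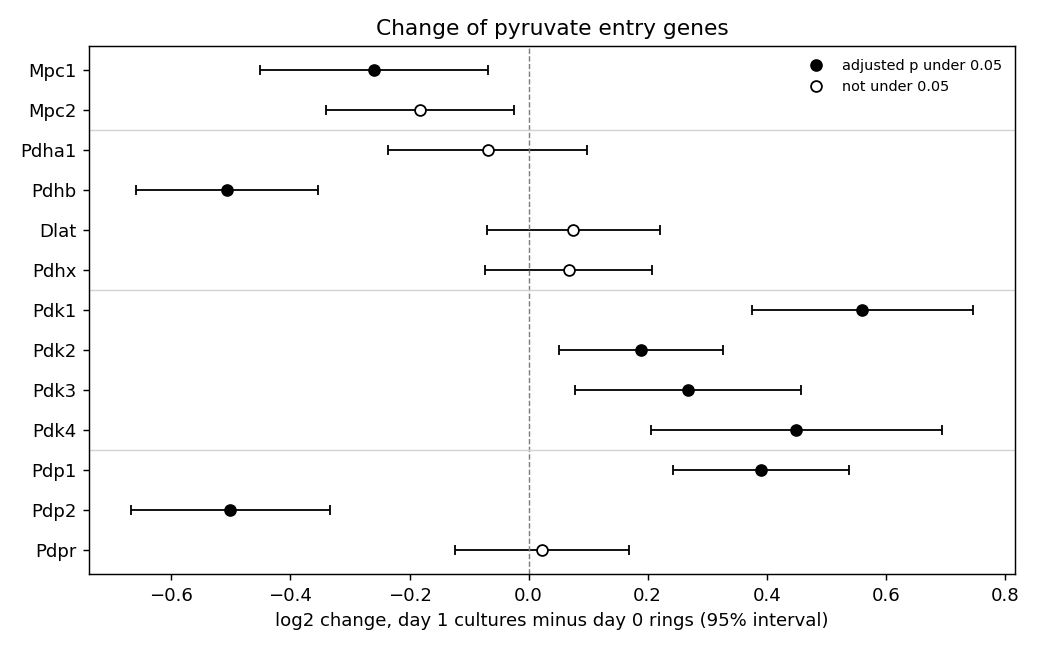
Log2 change of 13 pyruvate entry genes with 95% intervals from limma, day 1 cultures minus day 0 rings. From the top the blocks hold the pyruvate carrier, the dehydrogenase complex, its kinases and its phosphatases. All 4 kinases lie right of 0, from 0.19 to 0.56, while Pdhb lies at -0.51.

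Among 18 genes of side routes and shuttles, 7 passed upward and 4 downward (median 0.11), where 27.6% and 20.7% of all genes did. The count upward was 4 with quantile normalization and without day 0 replicate 1. It was 5 without each of the other arrays in turn and with the replicate block. The calls lost with an array left out were those of Me1 (5 of the 6 arrays), Glud1 (4) and Slc25a1 (4). The aspartate aminotransferases of the malate-aspartate shuttle rose, the cytosolic Got1 by 1.13 ± 0.07 and the mitochondrial Got2 by 0.78 ± 0.06. Got1 had 9.01, 9.02 and 8.96 in the day 1 cultures and 7.93, 7.91 and 7.75 in the day 0 rings. Pck1, which turns oxaloacetate into phosphoenolpyruvate in the cytosol and is expressed in fat, fell by 1.58 ± 0.10. The malic enzyme genes went both ways. Me3, with means of 5.23 in the day 1 cultures and 5.95 in the day 0 rings, fell by 0.72 ± 0.14. The brighter Me2, at 8.25 and 7.78, rose by 0.48 ± 0.07 (adjusted p = 7.36e-04), and Me1 was at 0.18 ± 0.06. Among 16 mitochondrial regulators and content genes, 6 passed upward and 2 downward (median 0.12). The count upward was 5 with quantile normalization and 8 with median centring. The call of Tomm20 was lost with 3 of the 6 arrays left out in turn (adjusted p 0.0523 to 0.0684). Ppargc1b, a coactivator of mitochondrial genes, fell by 1.51 ± 0.10 and Tfb1m by 0.42 ± 0.07. Tfb2m (0.78 ± 0.10) and Tfam (0.74 ± 0.08), factors of mitochondrial DNA transcription, and the chaperonin gene Hspd1 (0.42 ± 0.06) rose. The voltage-dependent anion channel genes of the outer membrane were at 0.35 ± 0.06 for Vdac1, -0.03 ± 0.06 for Vdac2 and 0.07 ± 0.07 for Vdac3, of which Vdac1 passed.

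Markers of cell types moved in the same comparison, in which 20.7% of all genes fell and 27.6% rose. Each list is given by its counts, its median log2 change and its summed linear intensity, and a sum is carried by the brightest probes of its list. All 8 measured smooth muscle markers fell (median -3.51), with Cnn1 at 6.86 in the day 1 cultures and 12.59 in the day 0 rings. Their sums were 3427 to 3871 in the day 1 cultures and 35790 to 36950 in the day 0 rings. Of 7 brown adipocyte markers 3 fell and 1 rose (median -0.13), with sums of 249.9 to 283.3 in the day 1 cultures and 611.5 to 691.1 in the day 0 rings. Ucp1, the defining gene of brown fat, averaged 4.75 in the day 1 cultures and 7.88 in the day 0 rings. Of 15 markers of skeletal and cardiac muscle 8 fell and 2 rose, with a median of -0.29. Their sums of 685.3 to 716.1 in the day 1 cultures and 3285 to 3382 in the day 0 rings differed far more than that median. Acta1, the skeletal actin gene and the brightest of them on day 0, averaged 6.75 in the day 1 cultures and 10.92 in the day 0 rings. The 2 muscle markers that rose were dim, with day 1 and day 0 means of 5.29 and 4.34 for Myh1 and 4.82 and 4.41 for Pvalb. Among those that fell, Myh2 (4.18 and 4.65), Myh7 (4.85 and 5.02) and Myl1 (4.42 and 5.18) were dim too. So were the adipocyte markers Cox8b (4.48 and 5.32) and Cd36 (3.995 and 4.655), which also fell. All the means of these dim markers lay below the array medians of 5.87 to 5.95. Of 9 white adipocyte markers 7 fell and 1 rose (median -0.66), with sums of 1061 to 1133 in the day 1 cultures and 1262 to 1349 in the day 0 rings. The adiponectin gene Adipoq fell by 1.08 ± 0.11. Of 12 macrophage markers 4 rose and 3 fell, with a median of 0.007. Cd68 rose by 1.70 ± 0.06 and Cd14 by 1.61 ± 0.07, while Lyve1, a marker of resident macrophages, fell by 2.05 ± 0.08, Csf1r by 0.46 ± 0.08 and Cd163 by 0.40 ± 0.07. The macrophage sums were 4738 to 5261 in the day 1 cultures and 3607 to 3825 in the day 0 rings. Of 7 endothelial markers 5 rose and 2 fell (median 0.34), with Flt1 at 0.78 ± 0.07, Esam at -0.65 ± 0.08 and Tek at -0.65 ± 0.06. Their sums overlapped, at 2108 to 2289 in the day 1 cultures and 2142 to 2395 in the day 0 rings. Some of these counts include calls near the threshold that were lost when 1 array was left out. The rise of Pnpla2, the 1 among white adipocyte markers, was lost with any array left out (adjusted p 0.0542 to 0.102). That of Pvalb, 1 of the 2 among muscle markers, was lost without day 1 replicate 1 or 2 or day 0 replicate 1 or 3 (0.0702 to 0.116). Falls were lost as well, that of the muscle marker Myh7 with any array left out (0.0562 to 0.107). The fall of Retn, a white adipocyte marker, was lost with 5 of the 6 arrays left out in turn (0.0903 to 0.147). Among macrophage markers, the rise of Itgam was lost without day 0 replicate 1 (0.057) or 2 (0.0841). Endothelial rises numbered 3 without day 1 replicate 3 or day 0 replicate 3. An array value has no true 0, so no marker can be called absent. The part of these cell types in the changes of the cycle enzymes was not tested.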

How the data were processed

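Total RNA was labelled with biotin by the Affymetrix whole-transcript sense protocol and hybridised to 1 array per sample, per the labels' protocols. The deposited values are log2 expression values, a scale inferred from their range. Limma is named in the submitters' processing notes, and the sources used here do not give how the arrays were background-corrected, normalized and summarised. Of 27342 rows, 15097 had exactly 1 symbol, updated by gene ID or accession through a GRCr8 gene table, which gave 14324 genes. Array medians lay between 5.87 and 5.95, those of day 1 all below those of day 0. Upper quartiles were 7.93 to 7.95 on the day 1 arrays and 7.83 to 7.87 on the day 0 arrays. No further scaling was applied, so small changes of bright genes include this difference between the groups. The number of arrays limits the precision.

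The comparison was fitted in R 4.3.3 with limma 3.58.1 (lmFit and eBayes, two-sided, no filter, no block), with p-values adjusted over all genes. Whether pools had animals in common is not stated, so p-values reflect only the spread between these pools. The script was tested on simulated data. The cycle genes and the other lists were chosen with earlier results of these data known. All measured members are named, and of the metabolic lists called genes with an absolute change of at least 0.5, up to 4 per list, and the largest change the other way. Ucp1, Cnn1 and Cd68 are named as markers. Partners in the same complex or family, Lias, Hspd1, Tomm20, Nrf1, Gabpa, Esrra and the other markers were chosen after their values were seen. A protein comparison was planned and not run. Alternatives were 2 scalings, 2 filters on dim genes, 2 rules for several rows, every row as a feature, a trend, array weights, treat, the replicate block and each array left out.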

Additional observations from a re-analysis of the deposited data

How the results depend on the processing

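Across 17 alternatives, Idh2 stayed between -1.17 and -1.02 and Ogdh between -0.97 and -0.82, both called in every one. Idh3a kept its call except with treat against a 1.5-fold change (adjusted p = 1), and Cs (-0.08 to 0.05) and Idh3b (0.06 to 0.25) passed in none. The count of members that rose was 0 with quantile normalization, with every row as a feature, with treat and with the replicate block, and 0 to 1 with 1 array left out. Members that fell numbered 3 to 4 with 1 array left out and 2 with treat, which called 1550 genes against 6915. With 1 array left out, 6172 to 6506 genes were called. Quantile normalization shifted every member downward, by 0.08 to 0.11, to -0.39 for Idh3a and 0.09 for Mdh2, while the median change of all genes was 0.002. The replicate block called 6686 genes and lost Mdh2. Whether same-numbered arrays were paired is not stated. The correlations of their deviations were 0.0106, 0.0186 and 0.0364 for replicates 1, 2 and 3. Day 1 replicates 2 and 3 correlated best with the day 0 array of their own number, and replicate 1 did not. With 3 arrays per group these values cannot tell whether a pairing existed. In the other lists, 59 of 374 recomputed counts moved by over 1.5 times, 23 of them with 1 array left out. The 3 pair differences kept their sign in all 27 recomputations. With 3 arrays per group, changes near 0.2 lay at the limit of what was called.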
